A study of Mus musculus with 28 samples.

Results

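The cells described here were fibroblasts of the mouse vein wall that carried transcripts of *Inmt*, *C7*, *Fmo2*, or *Gdf10* and few transcripts of the genes that mark fibroblast activation. They were chosen by their own RNA. A cell barcode with 200 to 6000 genes and at most 10% mitochondrial transcripts was kept, and it was a fibroblast if *Col1a1*, *Col1a2*, *Col3a1*, and *Dcn* together made up at least 1.5% of its unique molecular identifiers (UMIs), with under 1% from contractile genes (*Acta2*, *Tagln*, *Myh11*, *Myl9*) and under 0.5% from *Lyz2*, *C1qa*, and *C1qb*. A fibroblast entered the gate if *Inmt*, *C7*, *Fmo2*, and *Gdf10* together reached 0.05% of its UMIs, *Postn*, *Tnc*, and *Cthrc1* stayed under 0.2%, and *Thbs4*, *Cilp*, *Comp*, and *C1qtnf3* stayed under 0.1%. Of 16893 cells kept, 4395 were fibroblasts and 2191 passed all 6 limits, 13.0% of the cells and 49.9% of the fibroblasts. They are called gated fibroblasts below.

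All animals were C57BL/6 mice of both sexes that had a 5/6 nephrectomy before a carotid–jugular arteriovenous fistula (AVF), in which the end of the jugular vein is joined to the side of the carotid artery, so the contralateral veins also came from mice with reduced kidney mass. The ages of the animals were not found in the labels or the methods. Single-cell RNA sequencing (scRNA-seq) covered 3 libraries, each 1 pool of male and female vessels dissociated by enzymes, from contralateral veins, early AVFs, and late AVFs, whose labels give no day. Bulk RNA sequencing covered single vessels: 7 contralateral veins (5 female, 2 male), 8 early AVFs from about day 3 (3 female, 5 male), 5 mid AVFs from about day 10 (3 female, 2 male), and 5 late AVFs from about day 21 (3 female, 2 male). By the study's methods, the early and late single-cell AVFs were on average taken later than the bulk AVFs of the same name. Early and late are therefore not the same days in the single-cell and bulk libraries.

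Fibroblasts of the vein wall lie mainly in the adventitia, where they make collagen, proteoglycans, and elastic fibers and send signals to immune cells and nerves. After injury part of them become matrix-producing, partly contractile cells marked by *Postn*. *Inmt* codes for an enzyme that adds methyl groups to indole amines, *C7* for a part of the complement membrane attack complex, *Fmo2* for a flavin monooxygenase that oxidizes foreign compounds, and *Gdf10* for a secreted ligand of the TGF-β superfamily. *Dcn* codes for decorin, a small leucine-rich proteoglycan that binds collagen and TGF-β.

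The promoters of the 4 gate genes are shown because their transcripts chose the cells. The stretch upstream of each start site is given from RefSeq (GRCm38.p6), 5′ to 3′ on the gene's own strand: *Inmt* chr6:55175044-55175240 (minus strand, 197 bases), *C7* chr15:5063774-5064023 (minus), *Fmo2* chr1:162898759-162899008 (minus), and *Gdf10* chr14:33923337-33923586 (plus), the last 3 of 250 bases. Capitals mark matches, on either strand, to TATAAA (the TATA box), CCAAT (the CCAAT box), GGGCGG (bound by Sp factors), CANNTG (the E-box), TGANTCA (bound by AP-1), GTAAACA (bound by forkhead factors), or the glucocorticoid response element. Matches to different motifs may overlap.
Inmt: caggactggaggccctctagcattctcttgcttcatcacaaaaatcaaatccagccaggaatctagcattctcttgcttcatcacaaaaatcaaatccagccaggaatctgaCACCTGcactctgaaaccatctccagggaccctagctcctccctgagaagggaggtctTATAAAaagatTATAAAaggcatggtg
C7: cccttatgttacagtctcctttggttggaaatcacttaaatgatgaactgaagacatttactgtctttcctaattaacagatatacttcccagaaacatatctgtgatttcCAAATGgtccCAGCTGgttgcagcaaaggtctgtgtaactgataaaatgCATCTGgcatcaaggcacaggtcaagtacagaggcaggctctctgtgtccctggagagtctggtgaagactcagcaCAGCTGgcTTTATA
Fmo2: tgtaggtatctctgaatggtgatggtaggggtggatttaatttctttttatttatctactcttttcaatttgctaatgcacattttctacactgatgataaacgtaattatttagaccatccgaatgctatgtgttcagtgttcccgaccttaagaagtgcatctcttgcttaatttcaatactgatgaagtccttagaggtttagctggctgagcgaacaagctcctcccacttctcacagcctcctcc
Gdf10: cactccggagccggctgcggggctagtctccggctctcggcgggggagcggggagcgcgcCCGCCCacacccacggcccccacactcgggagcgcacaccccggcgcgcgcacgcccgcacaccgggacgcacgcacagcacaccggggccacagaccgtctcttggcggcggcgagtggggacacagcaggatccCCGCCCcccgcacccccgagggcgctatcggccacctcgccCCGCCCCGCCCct
In the *Inmt* window TATAAA stood 27 and 16 bases before the window's end and CANNTG once. The *C7* window held 4 CANNTG matches and 1 TATAAA on the reverse strand. The *Gdf10* window held 4 GGGCGG matches on the reverse strand and 35 CG pairs, with 78.8% of its bases G or C. That share was 45.7% in *Inmt*, 43.2% in *C7*, and 39.6% in *Fmo2*, against a median of 52.4% over 32851 promoters. The *Fmo2* window matched none of the motifs searched. Among those promoters, in windows of 250 bases, TATAAA occurred in 12.4%, GGGCGG in 32.7%, and CANNTG in 66.2%. The genes lie at chr6:55170626-55175043 (*Inmt*), chr15:4988762-5063740 (*C7*), chr1:162874317-162898726 (*Fmo2*), and chr14:33923587-33937983 (*Gdf10*) in the GENCODE annotation of GRCm38, and *Dcn* at chr10:97479609-97518143 on the plus strand.

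Gated fibroblasts were the main fibroblasts of contralateral veins and a small part of those in early AVFs. They numbered 1501 of 1697 fibroblasts in contralateral veins (88.5%, 95% exact binomial interval 86.8–89.9), 52 of 623 in early AVFs (8.35%, 6.30–10.8), and 638 of 2075 in late AVFs (30.7%, 28.8–32.8). Of all cells kept they made up 23.8%, 1.09%, and 10.96% in the same order. With 1 library per condition no test was possible, and intervals cover counting error only. In early AVFs 70.1% of fibroblasts exceeded the *Postn*, *Tnc*, and *Cthrc1* limit, against 0.648% in contralateral veins and 15.5% in late AVFs. In late AVFs the largest class was the 42.2% of fibroblasts under the *Inmt*, *C7*, *Fmo2*, and *Gdf10* limit and under both activation limits, and a further 11.6% exceeded the *Thbs4*, *Cilp*, *Comp*, and *C1qtnf3* limit (1.77% in early AVFs). Without an upper limit on genes per barcode the gated share of early fibroblasts was 5.52%, since 629 fibroblast barcodes there had over 6000 genes. Barcodes that passed the gates but fell outside the quality limits numbered 506 in contralateral veins, 31 in early, and 62 in late AVFs. Of these, 500, 14, and 23 were over the mitochondrial limit. Among fibroblast barcodes outside the limits the gated share was 86.2%, 3.74%, and 11.3%.

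**Figure D1:**
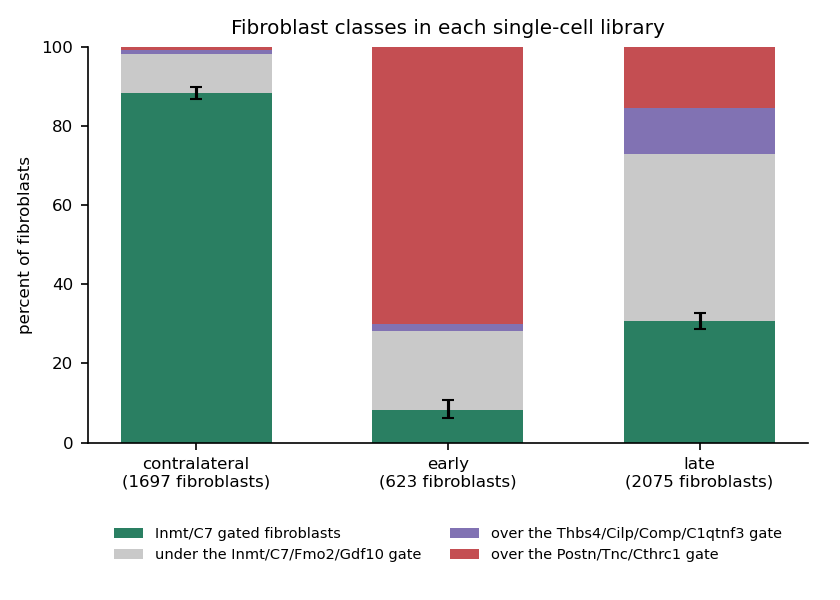
Stacked bars give the percent of fibroblasts in each class (y axis) for the 3 single-cell libraries (x axis), with the exact 95% binomial interval of the gated share. Gated fibroblasts (green) filled 88.5%, 8.35%, and 30.7% of the contralateral, early, and late bars.

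Depth differed between the libraries. Gated fibroblasts had a median of 4783 UMIs and 1829 genes in contralateral veins, 23682 UMIs in early AVFs, and 23236 UMIs in late AVFs, and summed to 11103180, 1138239, and 14578161 UMIs. Levels below are given in CPM, the UMIs of a gene for every 1000000 UMIs of these sums. At most 19 barcodes were shared between any pair of libraries, and none of these was a gated fibroblast. At the 0.05% limit the nearest cells held 0.0496% and 0.0520% in contralateral veins, 0.0484% and 0.0511% in early AVFs, and 0.04998% and 0.0501% in late AVFs. In late AVFs 73 gated fibroblasts lay within 1.2-fold above that limit and 67 other fibroblasts within 1.2-fold below it, against 8 and 6 in contralateral veins. The median share of UMIs from the 4 genes was 0.399% in contralateral, 0.101% in early, and 0.105% in late gated fibroblasts.

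Genes of other cell types were read in the gated fibroblasts as well. Summed over 8 macrophage markers outside the gate they held 78.7, 156, and 115 CPM in the contralateral, early, and late libraries, against 81.9, 150.0, and 121 CPM in the other fibroblasts, with no marker at 0. Of 8 endothelial markers, 5 were at 0 in early cells, and the list summed to 53.1, 11.4, and 13.7 CPM. Neutrophil markers summed to 7.20, 161, and 78.1 CPM, nearly all *S100a8* and *S100a9*, with 2 of 5 markers at 0 in early cells. Smooth muscle and pericyte markers summed to 147, 243, and 218 CPM, of which *Kcnj8* gave 124, 204 and 72.1 CPM and *Rgs5* 5.94, 5.27 and 97.7 CPM. Hemoglobin transcripts, which fibroblasts do not make, summed to 11970 CPM in contralateral, 3568 CPM in early, and 2.47 CPM in late gated fibroblasts, and to 12500, 939.5, and 2.545 CPM in the other fibroblasts. The part of such RNA in the differences below was not tested. Macrophage-gated cells of the same library serve as background for shares of gated fibroblasts with a UMI of a gate gene.

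Each gene of the gate made up a smaller share of the UMIs in AVF cells than in contralateral cells, although all of these cells had passed the same limit. *Inmt* stood at 1106, 106 and 158 CPM in contralateral, early, and late gated fibroblasts (12276, 121, and 2301 UMIs). At least 1 *Inmt* UMI was seen in 68.6%, 19.2%, and 41.2% of them, against 13.0%, 0.0541%, and 1.21% of macrophage-gated cells, whose median depth was 5773, 13405, and 14009 UMIs. The early *Inmt* level rested on 10 of 52 cells, 1 of which held 38.0% of the UMIs. *C7* stood at 539.9, 46.6 and 131 CPM and *Gdf10* at 1905, 620.3 and 620 CPM, and *Gdf10* was seen in 91.3%, 90.4%, and 95.3% of cells, so it was the most widely carried gene of the gate in each library. In macrophage-gated cells *Gdf10* was seen in 16.9%, 2.49%, and 6.78%, *Fmo2* in 14.2%, 6.50%, and 4.90%, and *C7* in 1.86%, 0%, and 0.452%. *Fmo2* stood at 984, 423 and 289.6 CPM, with 24.3% of its early UMIs from 1 cell. The matrix gene *Dcn* changed little, with 18108, 15508 and 17336 CPM.

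Since the gate used these values they are a description. The log2 ratio of early to contralateral cells was −3.38 (−3.65 to −3.12) for *Inmt*, −3.54 (−3.95 to −3.15) for *C7*, −1.22 (−1.35 to −1.09) for *Fmo2*, and −1.62 (−1.73 to −1.51) for *Gdf10*, with exact 95% intervals of counting error. All 4 genes were detected in 41.6% of contralateral, 5.77% of early, and 24.8% of late gated fibroblasts. A single gene was detected in 9.13%, 32.7%, and 6.90%. In early and late cells *Gdf10* gave 51.9% and 51.7% of the UMIs that let a cell through the gate, against 42.0% in contralateral cells, and *Inmt* gave 24.4% of them in contralateral, 8.89% in early, and 13.2% in late cells.

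Among all fibroblasts, gated or not, the order of the libraries in these shares was the same with and without thinning to equal depth. With every fibroblast thinned to 2000 UMIs, and shallower cells left out (472 contralateral, 163 early, and 79 late), *Inmt* was seen in 56.2% of contralateral, 1.52% of early, and 6.91% of late fibroblasts, where the unthinned shares were 62.3%, 2.25%, and 18.0%. The thinned shares were 46.8%, 0.652%, and 8.27% for *C7* (57.4%, 4.01%, and 29.98% unthinned), and 82.6%, 20.2%, and 33.1% for *Gdf10* (83.8%, 41.7%, and 70.6% unthinned). For *Fmo2* they were 61.4%, 10%, and 18.3% thinned and 73.0%, 23.4%, and 54.0% unthinned. In thinned macrophage-gated cells *Inmt* was seen in 3.58%, 0%, and 0% of 363, 1772, and 1273 cells, *C7* in 0.275%, 0%, and 0.0786%, *Gdf10* in 5.79%, 0.339%, and 1.10%, and *Fmo2* in 5.23%, 1.58%, and 1.10%.

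Contralateral fibroblasts with an *Inmt* UMI also differed from those without one in other genes. Among fibroblasts thinned to 2000 UMIs, 706 had *Inmt* and 519 did not. *Gdf10* was seen in 87.5% of those with *Inmt* and 74.0% of those without, and *Apoe*, the lipid carrier apolipoprotein E, in 77.2% and 57.6%. The shares ran the other way for *Pi16*, a marker of a widespread adventitial fibroblast type, at 35.6% against 48.9%, for the peptidase gene *Dpp4* at 3.54% against 11.8%, and for *Postn* at 1.42% against 10.4%. In late AVFs, where 128 fibroblasts had *Inmt* and 1868 did not, *Gdf10* was seen in 58.6% and 30.3%, *Pi16* in 38.3% and 55.1%, and *Postn* in 35.9% and 64.0%. The part of free RNA in these shares was not tested.

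Some genes outside the rule marked gated fibroblasts in every library. Of 2312 genes with at least 50 CPM, 18 were at least 2-fold higher in gated than in other fibroblasts of the same library in all 3 (0.779%) and 19 were at least 2-fold lower (0.822%). These counts did not leave out genes of the rule. Of the 4 gate genes 3 were tested, and all 3 were among the 18 by the choice of cells. As the same cells were split by their RNA this is no test. The 25 genes outside the rule with the largest smallest ratio fell into a few groups. Enzymes and transporters of small molecules included *Hsd11b1*, which activates glucocorticoids, the flavin monooxygenase *Fmo1*, and the potassium channel pair *Kcnj8* and *Abcc9*. *Hsd11b1* led the list with 227, 127 and 91.2 CPM against 64.5, 10.5, and 25.3 CPM in other fibroblasts. Its log2 ratios were 1.81, 3.60, and 1.85. *Abcc9* stood at 354, 363 and 322 CPM, with ratios of 2.74, 1.95, and 1.18. Its level differed by less than 1.2-fold between the libraries.

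Signaling molecules formed another group. *Gas6*, a ligand of the TAM receptors, stood at 2712, 1656 and 1409 CPM against 345, 386, and 665 CPM in other fibroblasts. The BMP antagonist *Chrdl1* (386, 105 and 148 CPM) was in the list, as were *Wnt5a* (199.9, 70.3 and 93.4 CPM), the stem cell factor gene *Kitl*, and *F3*, which codes for tissue factor, the starter of clotting (914, 293 and 373 CPM). *Ccl19*, a chemokine that draws cells bearing CCR7, had log2 ratios of 3.27, 1.87, and 0.90. *Ccl19* is listed under 2 gene identifiers, of which 1 holds all counts, so reads shared between near-identical copies make its level uncertain.

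Matrix, lipid, and immune genes completed the list. *Podn*, the leucine-rich proteoglycan podocan, stood at 463, 103 and 163 CPM against 101, 26.3, and 56.6 CPM in other fibroblasts, and *Fbln1*, an elastic fiber protein, at 1269.7, 1048 and 1300.2 CPM. The stromelysin gene *Mmp3* stood at 955, 1300.3 and 1239 CPM, complement *C2* at 614, 373 and 367 CPM, and the selenium carrier *Selenop* at 1424, 1068 and 1229.5 CPM. *Apoe* stood at 1589, 2296 and 2539 CPM and *Gpnmb* at 393, 282 and 347 CPM, and macrophage-gated cells held 10473, 16980, and 9602 CPM of *Apoe*. The others of the list shown here were *Gabra3*, *Ism1*, *Pid1*, *Cav1*, *Shox2*, *Pltp*, and *Armh4*.

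**Figure D2:**
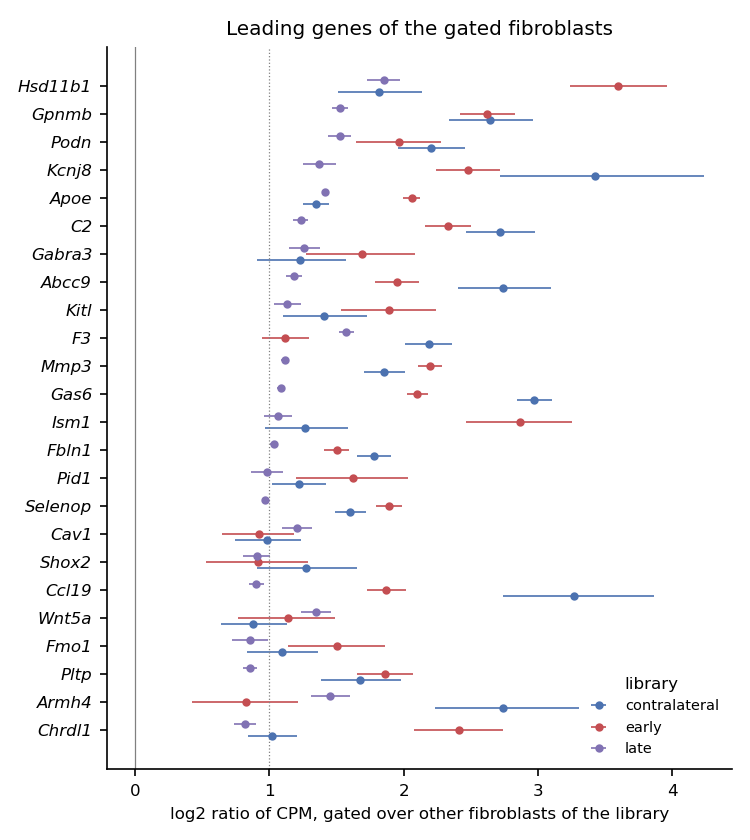
Points give the log2 ratio of CPM in gated over other fibroblasts (x axis) for the leading genes (y axis) in each single-cell library, with exact 95% intervals of counting error. All points lie above 0, from 0.82 for *Chrdl1* in late AVFs to 3.601 for *Hsd11b1* in early AVFs.

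The other fibroblasts of contralateral veins carried a different set. They held 2357 CPM of *Pi16* where gated fibroblasts held 525.98, 438 against 29.7 CPM of *Dpp4*, and 799 against 138 CPM of the guidance cue *Sema3c*. *Apod*, a lipid carrier, stood at 5276 against 792 CPM and *Igfbp5*, which binds insulin-like growth factors, at 4042 against 774 CPM. In early AVFs *Pi16* was higher in gated cells, 567.5 against 226 CPM, and in late AVFs lower again, 560.5 against 1335 CPM. General fibroblast genes did not separate the classes: of 12 tested, *Fbln1* alone was 2-fold higher in gated cells in all 3 libraries, and *Pdgfra* stood at 511, 442 and 307 CPM in gated cells and 589.9, 260.4, and 264 CPM in the others.

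Between libraries the gated fibroblasts differed in many genes. Of 3097 genes with at least 50 CPM in 1 of the sums, 579 differed at least 2-fold between early and contralateral cells (18.7%), 248 higher (8.01%) and 331 lower (10.7%). Late and contralateral cells differed in 378 of 3029 genes (12.5%; 225 higher, 7.43%, and 153 lower, 5.05%), and late and early cells in 176 of 2782 (6.33%; 98 higher, 3.52%, and 78 lower, 2.80%). The median log2 ratio of all these genes was −0.14 for both AVF libraries against contralateral. Median-of-ratios size factors raised every AVF ratio by 0.25 (early) or 0.26 (late) and turned the split to 341 higher and 180 lower in early cells and 325 higher and 96 lower in late cells. Ratios within 0.26 below 0, such as the median of 12 general fibroblast genes in early cells (−0.16), change sign under that scaling.

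Cytokines and chemokines were higher in the gated fibroblasts of both AVF libraries. Of 20 genes, 16 were at least 2-fold higher in early than in contralateral gated fibroblasts and 1 was lower (median log2 ratio 1.97), and of 19 tested in late cells 12 were higher and 1 lower (median 1.90). Of all genes, 8.01% were higher and 10.7% lower in early cells, and 7.43% and 5.05% in late cells. *Cxcl1*, which draws neutrophils, stood at 388, 4591 and 3934 CPM. The monocyte attractants *Ccl2* and *Ccl7* stood at 388, 3192 and 2507 CPM and 186, 2646 and 2074 CPM, and *Il6* at 104, 1118 and 757 CPM, a log2 ratio of 3.42 (3.31 to 3.54) in early cells. Prostaglandin synthase *Ptgs2* stood at 124, 1513 and 613 CPM, the alarmin *Il33* at 144, 699 and 394 CPM, and the adhesion molecules *Vcam1* and *Icam1* at 138, 443 and 515 CPM and 127, 267 and 514 CPM. *Cxcl14* ran the other way, at 409.6, 180.1 and 164 CPM. *Cxcl12*, which holds leukocytes and stem cells in tissue, was 2-fold higher in early cells alone, at 1258, 2672 and 1141 CPM. The other fibroblasts held 2991 CPM of *Cxcl1* in early and 5094 CPM in late AVFs. These levels go against calling the gated fibroblasts of AVFs quiescent, so they are named here by their gate.

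The 12 genes with the largest ratio of early to contralateral cells included acute-phase genes and chemokines. *Saa3*, an acute-phase apolipoprotein, went from 0.360 CPM (4 UMIs) in contralateral to 4159 CPM in early and 287 CPM in late gated fibroblasts. It was seen in 32 of 52 early cells, 5 of which held 71.4% of its UMIs, and in 37.3% of early macrophage-gated cells. Haptoglobin, *Hp*, stood at 0.811, 297 and 182 CPM, the iron-binding *Lcn2* at 0.630, 145 and 14.3 CPM, and *Cxcl5* at 2.52, 285 and 123 CPM. *Cxcl2* stood at 42.1, 1740.4 and 1535 CPM, against 10867 CPM in early macrophage-gated cells. The others were the lubricin gene *Prg4* (9.55, 421 and 56.5 CPM), the adhesion molecule *Chl1* (3.603, 219 and 31.4 CPM), *Rnd1* (2.25, 216 and 106 CPM), *Emb* (5.04, 212 and 118 CPM), *Dio2* (0.811, 56.2 and 19.1 CPM), *Ptgs2os* (1.08, 60.6 and 9.67 CPM, with 47.8% of early UMIs in 1 cell), and *Spp1* (0.901, 81.7 and 48.7 CPM, against 3237 CPM in early macrophage-gated cells). The early levels of *Rnd1*, *Hp*, and *Cxcl5* also rested on few cells, with 75.6%, 71.9%, and 70.1% of the UMIs in 5 of 52. In late cells 5 of 638 held 66.6% of the *Spp1* and 63.0% of the *Lcn2* UMIs.

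The 12 genes with the lowest ratio of early to contralateral cells included several matrix genes. *Tgfbi*, an adhesion protein of the matrix, stood at 1046, 125 and 488 CPM (log2 ratio −3.07 in early cells), the heparan sulfate proteoglycan gene *Gpc3* at 304, 30.7 and 92.7 CPM, *Spock2* at 163, 11.4 and 17.6 CPM, and *Vit* at 376, 45.7 and 66.3 CPM. *Igfbp3* stood at 185, 5.27 and 139.8 CPM, lowest in early cells, where it had 6 UMIs in 3 of 52 cells. It was seen in 155 of 1501 contralateral and 162 of 638 late cells. The lipid transporter *Abca8a* stood at 620, 77.3 and 163 CPM. *Epyc* (88.3, 8.79 and 37.3 CPM, 9 of its 10 early UMIs in 1 cell), *Omd* (65.9, 8.79 and 28.0 CPM), *Gria4* (67.01, 7.91 and 19.6 CPM), and *Peg3* (98.0, 12.3 and 25.3 CPM) completed the 12 together with *C7* and *Inmt*.

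Several small leucine-rich proteoglycans, which order collagen fibrils, were lower in AVF cells. Of 8 tested in early cells, 4 were at least 2-fold lower and 1 was higher (median −1.504), and of 9 tested in late cells 4 were lower and 1 higher (median 0.03). Of all genes, 10.7% were lower and 8.01% higher in early cells, and 5.05% and 7.43% in late cells. The 1 higher gene in each was thus near the share over all genes. *Ogn* stood at 1792, 315 and 575 CPM, *Ecm2* at 339, 64.1 and 144 CPM, and *Podn* and *Omd* were lower as well. *Bgn*, biglycan, ran the other way, at 1675, 4844 and 3212 CPM, while lumican, *Lum*, stood at 2027, 2458 and 2075 CPM. *Fmod*, fibromodulin, was higher in late cells, at 29.1, 4.39 and 86.0 CPM.

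Some complement genes were higher in AVF cells. Of 10 tested, 5 were at least 2-fold higher in early cells and 0 lower (median 0.83). In late cells 2 were higher and 0 lower (median 0.12). Of all genes, 8.01% were higher and 10.7% lower in early cells, and 7.43% and 5.05% in late cells. *C2* of the classical pathway was lower by less than 2-fold in early and late cells, with 614, 373 and 367 CPM. *C7*, also lower, is outside this list, and its values were used to choose the cells. *C3*, on which the complement pathways meet, stood at 2916, 7997 and 4631 CPM. Factor B, *Cfb*, stood at 244, 2134 and 477 CPM, *C4b* at 433, 1136 and 950 CPM, and the inhibitor clusterin, *Clu*, at 59.2, 575 and 192 CPM. In the other fibroblasts of early AVFs *C3* stood at 1793 CPM and *Cfb* at 611 CPM.

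**Figure D3:**
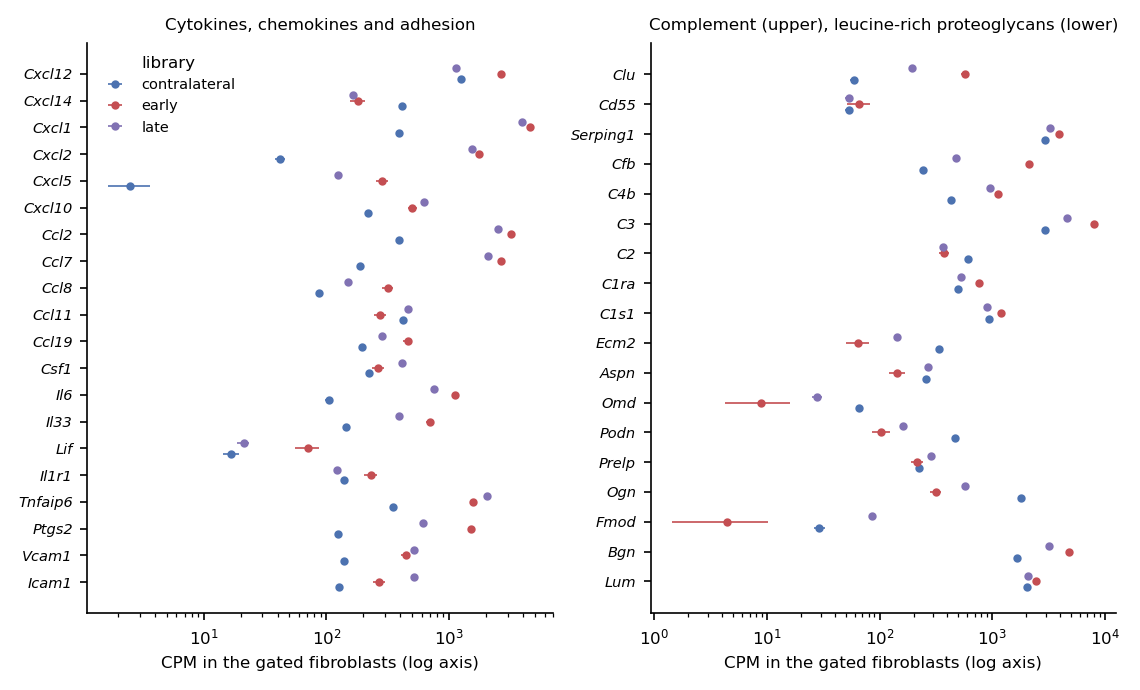
Points give CPM summed over gated fibroblasts (x axes, log scale) with exact 95% Poisson intervals, by library, for cytokines, chemokines, and adhesion genes (left), complement genes (right, upper), and leucine-rich proteoglycans (right, lower). Early and late points lie right of the contralateral points for *Cxcl1*, *Ccl2*, *Il6*, and *Bgn*, and left of them for *Ogn*, *Ecm2*, and *Podn*.

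Immediate early and heat shock genes, which respond within minutes to stress including enzymatic dissociation, were highest in late gated fibroblasts. Of 24 tested, 7 were at least 2-fold higher in early cells (median 0.52), 16 in late cells (median 1.26), and 8 were higher in late than in early cells. Over all genes the shares of higher genes were 8.01%, 7.43%, and 3.52% in the same order. *Jun* stood at 3285, 3347 and 8385 CPM, *Fos* at 2383, 2973 and 5121 CPM, *Hspd1* at 272, 315 and 1017 CPM, *Hspb1* at 690.4, 3262 and 4681 CPM, and *Atf3* at 477, 1198 and 1973 CPM. In other fibroblasts *Jun* stood at 3673, 3927, and 7418 CPM, and 0 of the 24 genes were 2-fold apart between the classes in all 3 libraries. The part of tissue handling in these levels was not tested.

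Activation genes outside the rule were also higher in AVF gated fibroblasts. Of 13 tested in early cells 8 were at least 2-fold higher (median 1.27), and of 11 in late cells 4 (median 0.73). Over all genes 8.01% were higher in early and 7.43% in late cells. *Runx1*, a transcription factor of wound fibroblasts, stood at 11.4, 192 and 209.7 CPM against 18.8, 322, and 252 CPM in other fibroblasts. *Thbs1*, an activator of TGF-β, stood at 13.0, 181 and 61.8 CPM against 527 CPM in other early fibroblasts, and *Timp1* at 112, 572 and 224 CPM. *Postn*, which the gate limits, stood at 19.8, 438 and 419 CPM. Of 11 activation genes tested, 3 were 2-fold lower in gated than in other fibroblasts in all 3 libraries, against 0.822% of all genes.

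Of 15 cell division genes *Pcna* alone reached 50 CPM in gated fibroblasts, at 51.1, 46.6 and 45.0 CPM, and the list summed to 107, 105, and 93.8 CPM, against 161, 292, and 91.2 CPM in the other fibroblasts, so in late AVFs the classes were close. *Mki67* stood at 3.87, 0.879 and 2.74 CPM in gated and 24.2 CPM in other early fibroblasts. After thinning to 2000 UMIs it was seen in 0.631% of 1110 contralateral, 0% of 39 early, and 0.478% of 628 late gated fibroblasts (0.5996%, 1.92%, and 4.86% unthinned). In other early fibroblasts it was seen in 4.51% of 421 (11.7% unthinned). The exact 95% interval of the early gated share reached 9.03%, so a lower share than in other early fibroblasts is not shown. In thinned macrophage-gated cells it was seen in 1.65%, 4.80%, and 6.44%. Of the cell cycle inhibitors, *Cdkn1a* stood at 40.7, 136 and 146 CPM and *Btg1* at 92.2, 185 and 231 CPM.

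A list of 10 genes that the study named from these samples, grouped here as resting fibroblast genes, was not uniformly lower in AVF cells. The study named *Ltbp4* and *Pcolce2* as falling in whole vessels, and *Gsn* as lower in AVF fibroblasts. As the list was chosen on these samples it is not independent evidence of a direction. In early gated fibroblasts 6 of the 10 were at least 2-fold lower and 1 was higher (median −1.37), and in late cells 2 were lower and 1 higher (median −0.83). Of all genes, 10.7% were lower and 8.01% higher in early cells, and 5.05% and 7.43% in late cells. *Gsn*, the actin-severing gelsolin, stood at 17551, 3468 and 9129.6 CPM, the arrestin *Txnip* at 529.9, 105 and 281 CPM, the collagen-processing enhancer *Pcolce2* at 576, 187 and 343 CPM, and *Ltbp4*, which binds latent TGF-β, at 508, 235 and 475 CPM. *Eln*, elastin, was the higher gene, at 464, 2019.8 and 1879 CPM. *Apoe* and *Abcc9* were within 2-fold of contralateral in both AVF libraries.

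Late gated fibroblasts stood apart from early ones in a short set of genes. Those higher in late cells were led by *Igfbp3* and *Fmod*, followed by the transcriptional cofactor gene *Lmcd1* (0.901, 7.03 and 50.2 CPM), the MHC class II genes *Cd74* (44.3, 19.3 and 130.2 CPM), *H2-Aa* (25.6, 15.8 and 70.3 CPM), and *H2-Eb1* (23.4, 13.2 and 60.8 CPM), and the flow-responsive factor *Klf2* (198, 250.4 and 1014 CPM). The early levels of *Igfbp3*, *Fmod*, and *Lmcd1* rested on 6, 5, and 8 UMIs, and those of *Cd74*, *H2-Aa*, and *H2-Eb1* on 22, 18, and 15. In late cells 5 of 638 held 41.3% of the *Cd74*, 36.3% of the *H2-Aa*, and 35.6% of the *H2-Eb1* UMIs. *Cd74* was seen in 98.4% of late macrophage-gated cells at 11210 CPM. The mean over cells in place of the sum gave *H2-Eb1* a log2 ratio of −0.19 rather than 2.21. Lower in late cells were *Saa3*, *Lcn2*, *Prg4*, *Chl1*, *Cfb*, the growth factor gene *Ptn* (3.33, 118 and 17.1 CPM), and *Nr4a2* (25.2, 354 and 51.7 CPM). In early cells 5 of 52 held 93.3% of the *Ptn* UMIs, 1 of them 32.1%, and 5 held 66% of the *Nr4a2* UMIs, 1 of them 22.6%.

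Several genes of the 12 with the lowest late ratio had a lower CPM in late than in early gated fibroblasts. That step was not tested, and the early values rested on few UMIs. *Bmp4*, a BMP ligand, stood at 122, 23.7 and 17.9 CPM, and *Ntrk2*, a neurotrophin receptor, at 244, 70.3 and 43.5 CPM. The genes *Per3* (73.4, 24.6 and 9.74 CPM) and *Hlf* (53.9, 20.2 and 9.88 CPM) belong to the circadian clock and its output, and the time of day of tissue collection was not found in the labels or the methods. *Tent5c* (212, 41.3 and 23.7 CPM) and *Spon1* (194, 43.9 and 30.1 CPM) ran the same way. Early UMIs numbered 27 for *Bmp4*, 80 for *Ntrk2*, 28 for *Per3*, 23 for *Hlf*, 47 for *Tent5c*, and 50 for *Spon1*. In each gene 5 of 52 early cells held from 53.6% (*Per3*) to 74.1% (*Bmp4*) of them. Against contralateral cells, *Rgs16* (14.6, 203 and 277 CPM) and *Runx1* were among the 12 genes with the largest late ratio.

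Whole vessels gave replicated measurements of the same genes in samples that the gate had not used. In bulk libraries fewer cells of a type and less RNA per cell cannot be told apart. CPM values of vessels are scaled to library size by TMM, 12673 genes were tested, and library totals ran from 20254173 to 67457501 counts. edgeR's quasi-likelihood test with Benjamini–Hochberg adjustment over these genes called a gene at an adjusted *p* under 0.01 and a 2-fold change. Against contralateral veins it called 12.6% of genes in early AVFs (6.17% higher, 6.45% lower), 6.05% at mid (2.74% higher, 3.31% lower), and 5.33% at late (2.49% higher, 2.85% lower). Values are given as the log2 change fitted by edgeR, with its standard error (SE). All 4 gate genes fell in early AVFs (median log2 change −4.91), 3 fell in mid AVFs, and 2 in late AVFs.

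*Inmt* fell at all 3 time points. Contralateral veins ranged from 223 to 897 CPM with a median of 659, and early AVFs from 1.93 to 20.7 CPM with a median of 7.10 (log2 change −6.15 with SE 0.54, adjusted *p* of 4.76e-09). Mid AVFs gave 1.23, 2.97, 6.45, 7.70 and 8.05 CPM (log2 change −6.82 with SE 0.69, adjusted *p* of 2e-07), and late AVFs gave 12.5, 16.5, 16.8, 18.9 and 27.4 CPM (log2 change −5.01 with SE 0.63, adjusted *p* of 4.64e-06). No AVF of any time point reached the lowest contralateral vein, as was so for 2.34% of genes at the early, 4.69% at the mid, and 4.25% at the late time point. Late and early AVFs overlapped and did not differ past the threshold (log2 change 1.13 with SE 0.48, adjusted *p* of 0.2).

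*C7* fell in early AVFs, and some late AVFs lay within the contralateral range. Contralateral veins ranged from 60.4 to 1109.9 CPM (median 121), with both male veins highest, and early AVFs from 0 to 9.97 CPM (median 3.37, log2 change −6.54 with SE 1.10, adjusted *p* of 7.8e-05). Mid AVFs gave 4.58, 6.92, 10.8, 19.8 and 26.4 CPM, all below the contralateral veins, at log2 change −4.80 with SE 1.24, adjusted *p* of 0.0105, which misses the threshold. With contralateral vein 28, 31, 34, or 35 or early AVF 5 or 6 left out it passed, at an adjusted *p* of 0.00562 to 0.00960, and it passed in DESeq2 (0.000202), with either other filter, and in a fit of only the groups compared. Over all 31 alternatives it ran from 0.000202 to 0.0331. Late AVFs gave 12.3, 17.6, 22.9, 61.5 and 156 CPM, of which 2 lay within the contralateral range (log2 change −2.81 with SE 1.12, adjusted *p* of 0.105). The late difference was larger in males than in females by a log2 value of −5.53, but the test of that difference did not pass adjustment (adjusted *p* of 0.495, edgeR over all genes).

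*Fmo2* and *Gdf10* fell and then rose in part. *Fmo2* ranged from 463 to 1044 CPM (median 756) in contralateral veins and from 22.6 to 76.2 CPM (median 67.5) in early AVFs (log2 change −3.66 with SE 0.28, adjusted *p* of 7.21e-10). Mid AVFs gave 79.0, 95.8, 96.1, 98.0 and 207 CPM (log2 change −2.66 with SE 0.33, adjusted *p* of 2.86e-06), and late AVFs gave 106, 149.6, 162, 209 and 222 CPM (log2 change −2.10 with SE 0.32, adjusted *p* of 6.66e-05), all below every contralateral vein. The 5 late AVFs were all higher than the 8 early AVFs (log2 change 1.56 with SE 0.28, adjusted *p* of 0.00241), though without late AVF 16 or 17 the adjusted *p* was 0.0125 and 0.0134.

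*Gdf10* ranged from 362 to 1010.3 CPM (median 550.1) in contralateral veins and from 25.2 to 105 CPM (median 57.4) in early AVFs (log2 change −3.26 with SE 0.30, adjusted *p* of 1.11e-08). Mid AVFs gave 120.1, 123, 162, 178 and 199 CPM (log2 change −1.93 with SE 0.34, adjusted *p* of 0.000295). Late AVFs gave 189, 201, 241, 298 and 347 CPM, below every contralateral vein and above every early AVF. Their difference from contralateral veins missed the threshold (log2 change −1.23 with SE 0.33, adjusted *p* of 0.014, 0.00800 without contralateral vein 35, and 0.00517 to 0.0474 over 31 alternatives), and their difference from early AVFs passed it (log2 change 2.04 with SE 0.30, adjusted *p* of 0.000542).

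**Figure D4:**
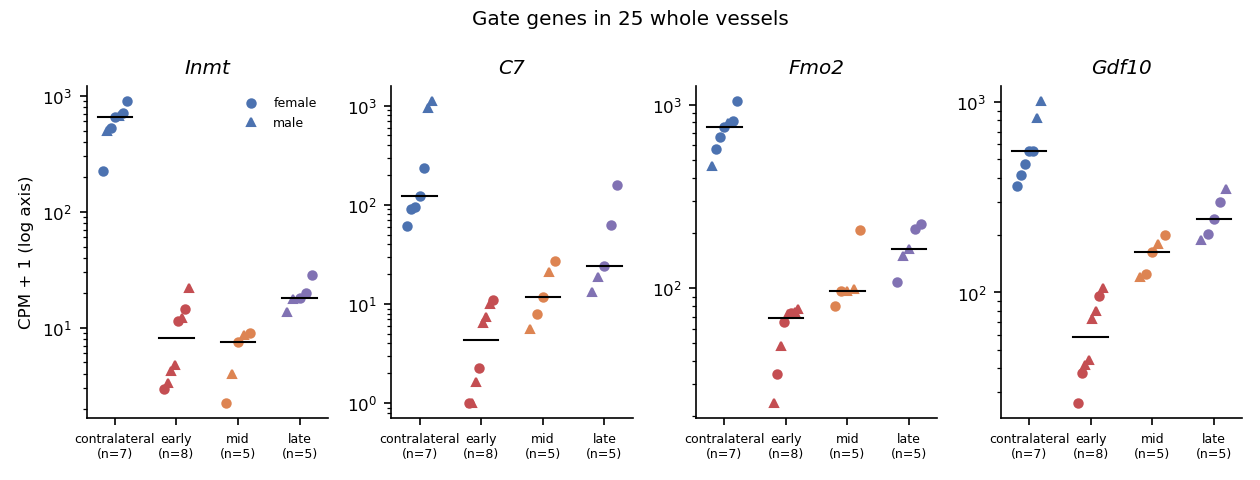
Each point is 1 vessel, with CPM + 1 on a log axis (y) by group (x), circles for female and triangles for male mice, and a line at the group median of CPM + 1. For all 4 gate genes the early and mid AVFs lie below every contralateral vein, and in late AVFs 2 *C7* points lie inside the contralateral range.

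*Dcn*, the marker shared by most fibroblasts, changed less. Contralateral veins ranged from 7946 to 16139 CPM and early AVFs from 451 to 3578 CPM (log2 change −2.71 with SE 0.32, adjusted *p* of 5.44e-07). Late AVFs gave 3599.8, 4892, 4898, 5369 and 5992 CPM (log2 change −1.20 with SE 0.36, adjusted *p* of 0.0284). The rise from early to late passed (log2 change 1.51 with SE 0.33, adjusted *p* of 0.00529) but did not without early AVF 3 or 5 or without any 1 of the late AVFs (adjusted *p* from 0.0120 to 0.0198). Nor did it pass with only the groups compared (0.0207). The mid fall (log2 change −1.53 with SE 0.36, adjusted *p* of 0.0052) did not pass without any 1 of the mid AVFs (0.0129 to 0.0170).

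Of the 25 leading genes of gated fibroblasts, 16 fell early, 7 mid, and 5 late, against 6.45%, 3.31%, and 2.85% of all genes tested. Their median log2 change was −2.03, −1.01, and −0.85, where the median of all genes was −0.01, −0.10, and −0.09. Markers of other wall cells fell in the same early vessels, 5 of 8 endothelial markers (median −1.71) and 4 of 8 of smooth muscle and pericytes (median −1.69), and their part in the fall of the gate and leading genes was not tested. In early AVFs 9 of the 25 lay below the contralateral veins in every vessel, against 2.34% of all genes. *Apoe* rose, from a contralateral range of 1689.6 to 5717 CPM to 4373 to 13218 CPM (log2 change 1.36 with SE 0.27, adjusted *p* of 0.000521), and 5 of 8 macrophage markers rose in the same vessels. The part of macrophages in the *Apoe* level was not tested.

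The leading genes still lower in late AVFs included *Hsd11b1*, *Cav1*, *Shox2*, and *Fmo1*. *Hsd11b1* ranged from 67.9 to 314 CPM in contralateral veins, and late AVFs gave 13.7, 15.5, 20.1, 21.6 and 53.8 CPM (log2 change −3.20 with SE 0.47, adjusted *p* of 4.16e-05). The values for early (−2.85) and mid AVFs (−4.00) were of like size. *Cav1*, which codes for caveolin and is also high in endothelium, ranged from 1204 to 2545 CPM in contralateral veins and from 542 to 657 CPM in late AVFs (log2 change −1.53 with SE 0.22, adjusted *p* of 3.02e-05), while 4 of 8 endothelial markers fell in late AVFs as well. *Shox2*, a homeobox factor, went from 51.9–192 CPM to 10.7, 16.7, 18.8, 19.4 and 23.4 CPM (log2 change −2.68 with SE 0.53, adjusted *p* of 0.00139). *Fmo1* went from 226–585 CPM to 53.4, 53.8, 57.0, 99.2 and 128 CPM (log2 change −2.40 with SE 0.51, adjusted *p* of 0.00239) but missed the threshold without late AVF 19 or 24 (0.0107 and 0.0114).

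Other leading genes returned toward the contralateral range. *Gas6* ranged from 435 to 1641 CPM in contralateral veins and from 67.1 to 407 CPM in early AVFs (log2 change −2.28 with SE 0.40, adjusted *p* of 0.000152), and late AVFs gave 973, 1129.9, 1327, 1495 and 1753 CPM, all above the early AVFs (log2 change 2.89 with SE 0.43, adjusted *p* of 0.000542). *Podn* went from 98.5–476 CPM to 0.217–22.0 CPM in early AVFs (log2 change −4.62 with SE 0.62, adjusted *p* of 4.09e-06) and to 51.1, 71.2, 74.7, 88.8 and 124 CPM in late AVFs. Its rise from early to late (log2 change 3.10 with SE 0.61, adjusted *p* of 0.00356) missed the threshold without late AVF 16, 17, 19, or 24 (0.0113 to 0.0151) and with only the groups compared (0.0111). *Chrdl1* went from 213–1061 CPM to 3.26–63.2 CPM (log2 change −4.41 with SE 0.47, adjusted *p* of 1.14e-07) and to 147, 152, 202, 204 and 237 CPM in late AVFs (log2 change 2.52 with SE 0.46, adjusted *p* of 0.00241 against early, and 0.0110 without late AVF 24). *Fbln1* also rose from early to late (log2 change 1.97 with SE 0.45, adjusted *p* of 0.00692), a call lost in 9 of the fits with 1 vessel left out (0.0101 to 0.0338). The call was also lost with either other filter, with sex as an added term, and with only the groups compared (0.0104 to 0.0168). In the main fit these 4 were the leading genes that rose from early to late AVFs, where 0.726% of all genes rose, and 9 of the 25 lay above every early AVF, against 7.16% of all genes.

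**Figure D5:**
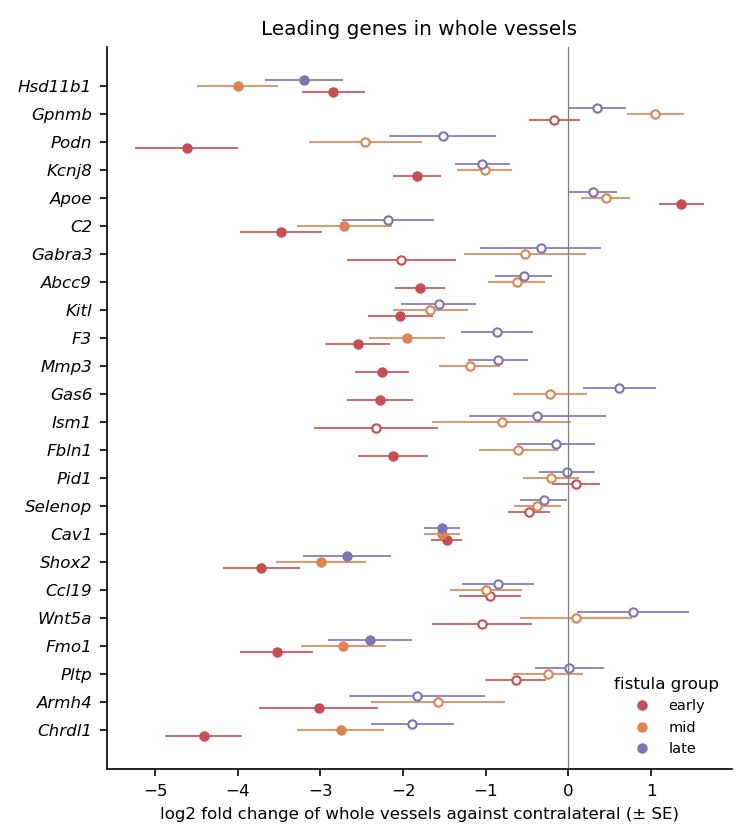
Points give the edgeR log2 change of whole vessels against contralateral veins (x axis, ± SE) for the leading genes (y axis) at 3 time points, filled where the gene passed the threshold. Most early points lie left of 0, *Apoe* lies right of it at 1.36, and *Hsd11b1*, *Cav1*, *Shox2*, and *Fmo1* are filled at all 3 time points.

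The potassium channel pair and other genes followed the early fall without a late call. *Kcnj8* (log2 change −1.83 with SE 0.29, adjusted *p* of 3.57e-05) and *Abcc9* (log2 change −1.79 with SE 0.31, adjusted *p* of 9.99e-05) fell in early AVFs although their levels in early gated fibroblasts were 204 and 363 CPM against 124 and 354 CPM in contralateral cells. *C2* (log2 change −3.48 with SE 0.49, adjusted *p* of 8.4e-06), *F3* (log2 change −2.55 with SE 0.40, adjusted *p* of 2.83e-05), and *Mmp3* (log2 change −2.25 with SE 0.32, adjusted *p* of 1.04e-05) fell as well. *Gpnmb* (−0.17), *Pid1* (0.09), *Selenop* (−0.48), and *Ccl19* (−0.95) did not pass in early AVFs.

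Whole vessels and gated cells differed in direction for some complement genes. In early AVFs 9 of 13 complement genes tested fell in whole vessels (median −2.17), and *C3* fell (log2 change −1.59 with SE 0.39, adjusted *p* of 0.00412), where early gated fibroblasts held 7997 CPM of *C3* and contralateral ones 2916 CPM. *C2* and *C7* were lower in both. For cytokines the directions were alike in part: of 19 tested 5 rose and 1 fell in early AVFs, with *Cxcl1* (log2 change 4.43 with SE 0.87, adjusted *p* of 0.000477) and *Ccl2* (log2 change 5.20 with SE 0.74, adjusted *p* of 9.03e-06) among those that rose, while all 5 neutrophil markers rose in the same vessels. Of the 24 immediate early and heat shock genes, 1 rose and 4 fell in early AVFs (median −0.58), and 3 fell in late AVFs (median −0.22). In late gated cells 16 had been 2-fold higher. Over all genes tested in vessels, 6.17% rose and 6.45% fell in early AVFs, and 2.49% rose and 2.85% fell in late AVFs. Skeletal muscle genes rose at every time point (4 of 4, median 7.52 to 8.10), and their part in these differences was not tested. Leucine-rich proteoglycans fell in early AVFs in 5 of 9 (median −1.82), and 2 of 9 rose in late AVFs, among them *Bgn* (log2 change 1.13 with SE 0.27, adjusted *p* of 0.00675).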

How the data were processed

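The authors deposited raw counts: UMI counts for each barcode and gene in 3 single-cell libraries, and read counts for each vessel and gene in 25 bulk libraries. The submitters' processing notes name Cell Ranger, STAR, and the build GRCm38 (mm10). Tool versions and the annotation of the bulk counts were not found in the labels or methods. Groups came from the labels. The gated fibroblasts and all gene lists were chosen with earlier results of these data known.

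From the UMI counts, barcodes were filtered and gated as described, and UMIs were summed for each class and library (Python 3.11.15, numpy 2.4.6, scipy 1.17.1). Genes with at least 50 CPM in 1 of the sums compared were called at 2-fold, with sums under 3 counts raised to 3. Exact 95% intervals cover counting error only, since each condition was 1 library. Scrublet (scanpy 1.11.5) marked 0 of 6319 contralateral, 2 of 4753 early, and 120 of 5821 late cells, so it had not worked in the first 2 libraries, and no cell was removed. Thinning drew a fixed number of UMIs from each cell.

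Bulk counts were tested with edgeR 4.0.16 in R 4.3.3 (TMM, quasi-likelihood, 25 libraries, 1 mean for each group). Genes needed a mean normalized count of 100. Bulk *p*-values measure the spread between the vessels as labelled. Alternatives for vessels were DESeq2 1.42.0, its size factors in edgeR, other filters, sex as an added term, only the groups compared, and each vessel left out. For cells they were other gate, gene, mitochondrial, and CPM limits, thinning, other scalings, and Scrublet doublets left out. The scripts were tested on simulated data. Of the genes in the bulk table, 4808 had no symbol. Named genes were the gate and marker genes, the 25 genes with the largest smallest ratio over other fibroblasts, the 12 largest ratios in each direction for each pair of libraries, and examples from the lists. A few genes of these sets are counted but not reported here by name.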

Additional observations from a re-analysis of the deposited data

Results flagged for a closer look

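Of 120 groups of vessels tested for *Dcn*, the gate genes, and the leading genes, 11 held a vessel set apart from the rest of its group by Dixon's ratio at the 95% level, which chance gives in about 1 of 20 groups. Mid AVF 12 was lowest in 3 genes: *Armh4* at 27.4 CPM (others 44.8 to 54.1), *Dcn* at 3242 CPM (others 3986 to 4328), and *Selenop* at 989 CPM (others 1233 to 1289). Early AVF 6 was lowest in *C2* at 0.190 CPM (others 5.89 to 17.2) and *Fmo1* at 1.19 CPM (others 21.5 to 51.3). Contralateral vein 28 was lowest in *Ism1* at 0.312 CPM (others 13.5 to 66.0) and *Pid1* at 24.7 CPM (others 112 to 285). Mid AVF 15 was lowest in *Ism1* at 10.7 CPM (others 16.3 to 18.7) and *Pid1* at 113 CPM (others 153 to 170.0). Mid AVF 13 was highest in *Fmo2* at 207 CPM (others 79.0 to 98.0), and contralateral vein 27 was lowest in *Hsd11b1* at 67.9 CPM (others 179 to 314).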

How the results depend on the processing

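No paired analysis was possible because the groups of vessels share no vessel numbers and each condition had 1 single-cell library. Median-of-ratios scaling gave the splits printed with the report's counts. The shares and counts below are given as contralateral, early, and late, or for the pairs named, and the cause of each change was not tested. With the *Inmt*, *C7*, *Fmo2*, and *Gdf10* limit at 0.1%, gated cells were 85.1%, 4.17%, and 16.5% of fibroblasts and 0.547% (early) and 5.89% (late) of kept cells. Without it they were 98.4%, 28.1%, and 73.0% of fibroblasts and 26.4%, 3.68%, and 26.0% of kept cells, with 13 genes 2-fold apart from other fibroblasts in all libraries. With cells thinned to 1000 UMIs the share of fibroblasts was 85.3% (contralateral) and 21.9% (late), that of kept cells 8.01% (late), and genes past 2-fold numbered 1522 (early against contralateral), 1452 (late against early), and 11 (against other fibroblasts). There the reversed log2 ratios were 0.26 for *Omd* (early), and −0.10 for *Fmod*, −0.71 for *Lmcd1*, −0.014 for *H2-Aa*, −1.40 for *Ecrg4*, and −0.20 for *Col6a6* (late against early), where the floor of 3 counts is high by construction in thinned sums. Thinned to 2000 UMIs the values were 91.2% and 33.2% of fibroblasts and 28.8% and 12.7% of kept cells (contralateral and late), with 968, 640, and 18 genes. A 5% mitochondrial limit gave 11.9% of kept cells (late), at least 500 genes gave 30.5% of kept cells and 91.0% of fibroblasts (contralateral), no upper limit on genes 5.52% (early) and 27.3% (late) of fibroblasts, and cells of at least 2000 UMIs 28.7% and 90.6% (contralateral) and 12.1% of kept cells (late). The last 2 settings were chosen after seeing the data. A minimum of 20 CPM gave 1129, 687, 347, and 72 genes, and 100 CPM gave 310, 245, 109, and 23, for early and late against contralateral, late against early, and gated against other fibroblasts. The mean over cells gave 980 (early) and 483 (late against early) genes, with *H2-Eb1* at −0.19. In vessels, early, mid, and late calls numbered 3803, 2823, and 2696 with filterByExpr, 3938, 2728, and 2567 without a filter (208 late against early), 665, 403, and 279 with only the groups compared (596 late against early), and 2410, 1398, and 1278 with DESeq2 (733 late against early, and 11 named genes both late and late against early). With 1 vessel left out they ran from 1383 to 1816, 534 to 949, 424 to 886, and 32 to 557 (late against early, the lowest without late AVF 24), and named genes from 21 to 24, 9 to 14, 5 to 11, and 3 to 9. The late against early count of 381 was 35, 34, 38, and 32 without late AVF 16, 17, 19, and 24. Early calls of the 4 gate genes were kept under all 31 alternatives.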

Other observations

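Gene groups outside the inflammatory and matrix lists also differed between libraries of gated fibroblasts. Of 15 genes of foreign compound and metal handling, 4 were at least 2-fold higher and 4 lower in early than in contralateral cells, where 8.01% and 10.7% of all genes were. The metal-binding *Mt1* and *Mt2* stood at 1715, 4575 and 3648 CPM and 634, 2072 and 1812 CPM in contralateral, early, and late cells, and *Cyp1b1* at 52.7, 228 and 198 CPM. The retinaldehyde dehydrogenase *Aldh1a1* stood at 137, 35.1 and 49.8 CPM and the glutathione transferase *Gstm1* at 619.6, 184 and 455 CPM. Of 7 genes of insulin-like growth factor signaling, *Igf1* (418, 1195 and 823 CPM) and *Igfbp7* were higher in early cells, and *Igfbp3* and *Igfbp5* (774, 247 and 156 CPM) lower.

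Of 12 stromal transcription factors, 2 were at least 2-fold higher in early cells (*Runx1* and *Twist1*) and 5 lower (median −0.76): *Tbx18* (97.1, 29.9 and 50.6 CPM), *Osr1* (387, 189.8 and 202 CPM), *Ebf1* (621, 254 and 452 CPM), *Nfib* (1269, 549 and 751 CPM), and *Zeb2*. Over all genes 8.01% were higher and 10.7% lower in early cells. The Wnt modulators *Sfrp1* and *Sfrp4* (453, 1629.7 and 887 CPM) were higher in early cells. *Lpl*, which releases fatty acids from lipoproteins, stood at 558, 179 and 278 CPM, and the opioid precursor gene *Penk* at 124, 20.2 and 74.4 CPM. These libraries had no replicates, so no difference here was tested.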
